A study of Homo sapiens with 3 samples.

Results

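CREB1, CREM, ATF1, CREB3, CREB3L2, ATF6, ATF6B, ATF2, ATF7 and CREB5 encode CREB and ATF6 type transcription factors, and their messenger RNA was examined in KMS11 cells after knockdown of MMSET. Members were all probe sets whose single gene symbol on the HG-U133 Plus 2.0 array is one of these 10 names. They came to 36 of 54675 probe sets and covered 9 genes, since no probe set carried ATF1 as its single symbol in the annotation used, and ATF1 was not analysed here. KMS11 is a human multiple myeloma line with the t(4;14) translocation, which drives the histone methyltransferase gene MMSET, now named NSD2, from immunoglobulin enhancers. The cells were infected with lentiviruses and collected at 48 h. Of the 3 arrays, 1 was from cells given the MMSET hairpin shMMSET#2, 1 from cells given the MMSET hairpin shMMSET#4 and 1 from cells given shLuc, a hairpin against luciferase, which human cells lack. All 3 groups share the line, the translocation, the virus and the polybrene used for infection, and the line is a single established culture with no separate donors. The series title asks which transcription factors needed by t(4;14) myeloma cells depend on MMSET.

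CREB and ATF proteins are basic leucine zipper factors that bind DNA as dimers, many of them at the cyclic AMP response element (CRE). CREB1, CREM and ATF1 reside in the nucleus and become active when protein kinase A or other kinases phosphorylate them and the coactivators CBP and p300 are recruited. CREB3, CREB3L2, ATF6 and ATF6B are made as membrane proteins of the endoplasmic reticulum, and proteases of the Golgi release their DNA-binding part, a route that matters in secretory cells such as plasma cells. ATF2, ATF7 and CREB5 form another branch, in which ATF2 and ATF7 are substrates of the stress kinases JNK and p38.

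Values are MAS5 signals, linear brightness values per probe set that the authors scaled to a common level. With 1 array a group there was no replicate, so differences are given by size and describe these 3 arrays. A limma fit that took the hairpin arrays as 2 samples against shLuc called 0 of 13296 genes (smallest adjusted p 0.52), with 750 lower and 518 higher at an unadjusted p under 0.05. A probe set passed the filter when its signal was above the median of its array on at least 1 array, which 30 of the 36 did. Signals under the 40th percentile of all signals, 41.2, were set to that floor before ratios were taken, so where an array was at the floor the fold is a lower limit, written "at least". A difference was called at 1.5-fold. Each gene was represented by its brightest probe set, with the others given beside it. Both hairpin ratios use the same shLuc array. The only spread that could be measured was that between the hairpin arrays, which differed by 1.28-fold at the median over genes and by less than 2.37-fold in 95% of them.

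Median signals were 62.0 with shMMSET#2, 59.5 with shMMSET#4 and 77.4 with shLuc. The ACTB controls at the 3' and 5' ends of the transcript, a sign of RNA integrity, differed by 1.14 on the log2 scale with shMMSET#2, 1.14 with shMMSET#4 and 1.70 with shLuc. The like GAPDH controls differed by 0.10 with shMMSET#2, 0.0019 with shMMSET#4 and 0.042 with shLuc, and so did not set shLuc apart. The part of these array differences in the results below was not tested. On its brightest probe set NSD2 had signals of 7032 with shMMSET#2 and 7476 with shMMSET#4, against 10300 with shLuc. These are 1.46-fold and 1.38-fold lower, short of the 1.5-fold call with each hairpin. All 6 of its probe sets were lower with shMMSET#2 and 5 of 6 with shMMSET#4. Sizes ran from 1.45-fold to 6.45-fold lower with shMMSET#2, and from 3.07-fold lower to 1.04-fold higher with shMMSET#4. Of 10 plasma cell markers, 9 were above the floor on all arrays, among them SDC1, TNFRSF17, IRF4, PRDM1, XBP1 and JCHAIN, while CD27 was under it with shMMSET#4. Of 8 measured markers of other lineages, 4 were above the floor on all arrays: EPCAM with signals from 4391 to 10651, and the dimmer PECAM1, COL1A1 and CD3E. CD14 was under the floor on all 3 arrays.

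Among the 9 measured genes, CREB5 and CREB3L2 were lower and CREB3 and ATF6 were higher with both hairpins. CREB5 showed the largest difference of the 9, at least 8.52-fold lower with each hairpin. It passed the filter through the shLuc array alone, so some difference was built into its inclusion. For CREB3L2 the signal with shMMSET#2 was 3.01-fold below that with shLuc, and with shMMSET#4 it was 2.81-fold below it. CREB3 was 2.37-fold and 2.79-fold higher, and ATF6 was 1.84-fold and 1.65-fold higher. The other 5 genes were within 1.5-fold of shLuc with at least 1 hairpin. Hairpin by hairpin, 3 of 9 were lower with shMMSET#2 (22.5% of 13296 tested genes) and 3 were higher (16.2%), ATF2 and ATF7 among them. With shMMSET#4, 3 were lower (20.6%) and 3 were higher (17.3%), CREM and ATF6B among them. Thus 2 of 9 genes were lower with both hairpins, where 11.9% of tested genes were, and 2 of 9 were higher, where 8.6% of tested genes were. At 2-fold, 2 of 9 were still lower with both (4.35% of tested genes) and 1, CREB3, was higher (2.83%). These genes were grouped with their values known, so their count is a description and was not set against chance. Over the 9 genes the median log2 ratio was 0.04 with shMMSET#2 and 0.09 with shMMSET#4, beside -0.04 and -0.02 over all tested genes.

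**Figure D1:**
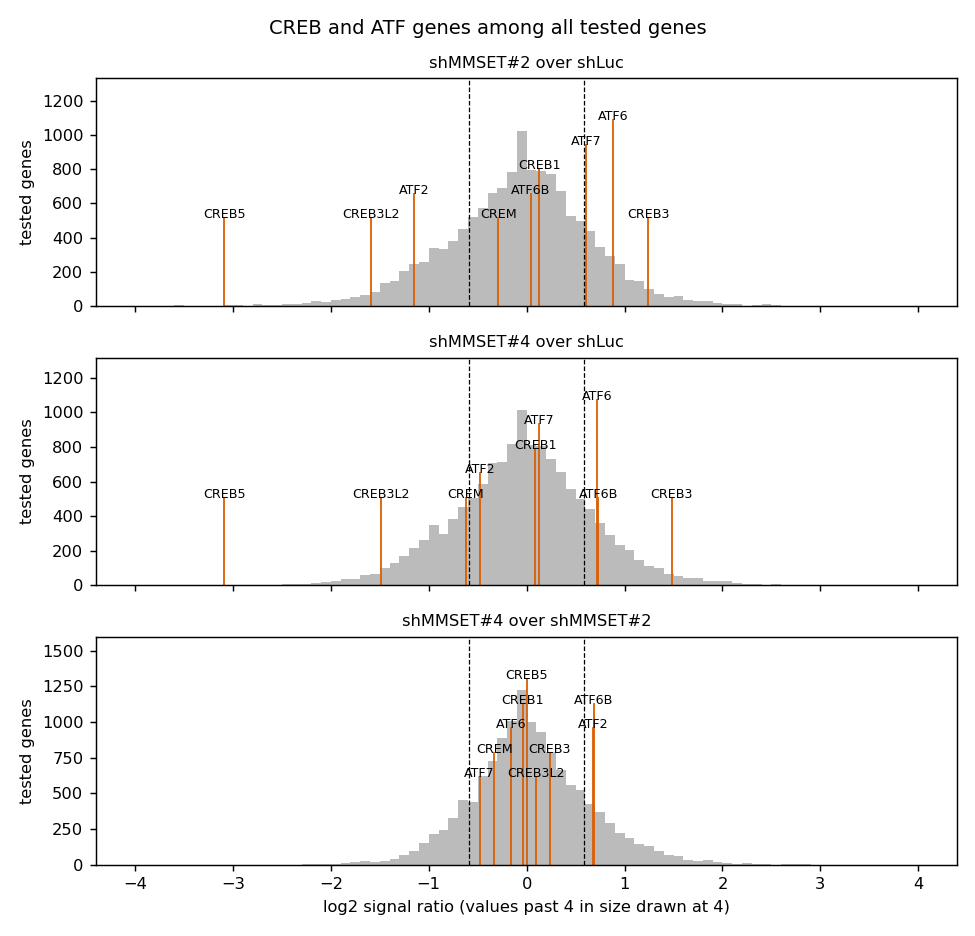
Histograms of the log2 signal ratio (x axis) over 13296 tested genes (y axis, number of genes), for shMMSET#2 over shLuc, shMMSET#4 over shLuc and shMMSET#4 over shMMSET#2. Orange lines mark the 9 CREB and ATF genes on their brightest probe sets and dashed lines mark 1.5-fold. CREB5 and CREB3L2 lie left and CREB3 and ATF6 right of the dashed lines in both upper panels, while ATF2 and ATF6B lie right of them in the lowest.

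Counted by probe set, with shMMSET#2 6 of the 30 that passed were called lower and 6 higher, against 23.1% and 16.4% of all tested probe sets. With shMMSET#4, 7 were lower and 4 were higher, against 23.2% and 16%. With both hairpins, 3 were lower (13.2% of all tested probe sets) and 3 were higher (8.17%). The 3 lower ones were a pair for CREB5 and 1 for CREB3L2, and the 3 higher ones belonged to CREB3, ATF6 and CREB1. The other 24 were not called with both hairpins. When every array was scaled to the same median signal, which moved the median over all tested genes to a log2 ratio of 0.25 with shMMSET#2 and 0.34 with shMMSET#4, the split became 5 lower and 9 higher with shMMSET#2, and 4 lower and 13 higher with shMMSET#4. The 4 genes named above kept their directions and stayed past 1.5-fold under that scaling.

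**Figure D2:**
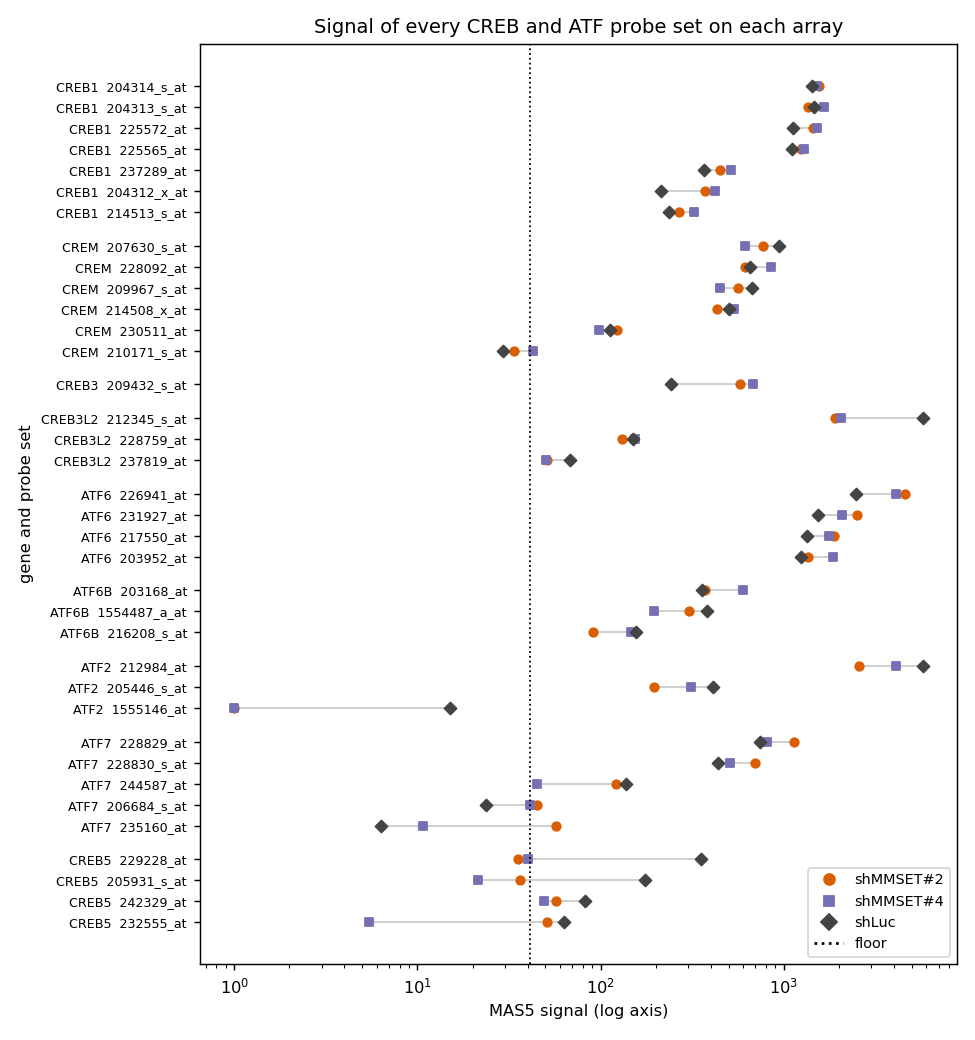
MAS5 signal (x axis, log scale) of all 36 probe sets (y axis, grouped by gene) on the shMMSET#2, shMMSET#4 and shLuc arrays, 1 point an array, with the floor of 41.2 as a dotted line. The shLuc points lie far right of both hairpin points for the brightest CREB5 and CREB3L2 probe sets and left of them for CREB3 and for all 4 ATF6 probe sets.

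The promoters of the 4 genes that differed with both hairpins, and of CREM, whose gene is itself a known CRE target, are shown because the family's own binding motif can be read in them. Each is the 250 bases before an annotated RefSeq start (GRCh38.p14), printed 5′ to 3′ on the gene's strand. Capitals mark the palindromic CRE, TGACGTCA, and its core TGACG on either strand (CGTCA on the other). A full CRE holds the core once on each strand.
CREB3L2, chr7:138002087-138002336, minus strand: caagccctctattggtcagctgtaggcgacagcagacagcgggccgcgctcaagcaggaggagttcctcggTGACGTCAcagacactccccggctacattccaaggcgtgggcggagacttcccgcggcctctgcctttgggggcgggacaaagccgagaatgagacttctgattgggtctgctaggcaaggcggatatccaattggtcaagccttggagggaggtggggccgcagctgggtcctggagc
CREB5, chr7:28412268-28412517, plus strand: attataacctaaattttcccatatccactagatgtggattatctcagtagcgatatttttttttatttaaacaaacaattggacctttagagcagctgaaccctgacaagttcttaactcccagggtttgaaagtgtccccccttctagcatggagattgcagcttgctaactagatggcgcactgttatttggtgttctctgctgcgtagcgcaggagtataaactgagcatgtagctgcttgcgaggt
CREB3, chr9:35732416-35732665, plus strand: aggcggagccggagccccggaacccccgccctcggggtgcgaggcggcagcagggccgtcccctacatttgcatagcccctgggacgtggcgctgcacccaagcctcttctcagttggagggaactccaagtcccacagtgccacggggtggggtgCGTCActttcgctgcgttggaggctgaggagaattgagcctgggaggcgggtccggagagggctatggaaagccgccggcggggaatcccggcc
ATF6, chr1:161766070-161766319, plus strand: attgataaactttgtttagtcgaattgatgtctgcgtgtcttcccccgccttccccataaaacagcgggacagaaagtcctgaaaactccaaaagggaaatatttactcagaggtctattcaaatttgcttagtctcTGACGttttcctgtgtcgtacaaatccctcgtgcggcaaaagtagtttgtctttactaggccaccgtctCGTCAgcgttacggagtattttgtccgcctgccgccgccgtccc
CREM, chr10:35195652-35195901, plus strand: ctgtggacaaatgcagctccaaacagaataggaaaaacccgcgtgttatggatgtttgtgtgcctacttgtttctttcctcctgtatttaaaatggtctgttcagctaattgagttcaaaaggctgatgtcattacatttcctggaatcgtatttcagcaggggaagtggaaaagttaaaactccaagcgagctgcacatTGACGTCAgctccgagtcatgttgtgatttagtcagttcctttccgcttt

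The CREB3L2 window held a full CRE that begins 179 bases before the start, and the CREM window held one that begins 50 bases before it. The CREB3 window held the core alone, 94 bases before the start, and the ATF6 window held it at 113 and 44 bases. None of the 3 CREB5 windows held it. The RefSeq table used has windows for 9 of the 10 genes, ATF1 included and ATF2 not, and 22 in all, counting alternative starts, some of which overlap. A full CRE was found in 2 of the 22, both printed here, and the core in 6 of them, which belong to 5 genes (CREB3L2, CREM, CREB3, ATF6 and ATF7). Among all 35116 windows of this length, 1.65% held the full CRE and 21.2% held the core. Neither TGACGTGG, a sequence bound by ATF6, nor the endoplasmic reticulum stress element, CCAAT and CCACG with 9 bases of any kind between them, was found in the 22 windows on either strand, and these stood in 0.612% and 0.0740% of all windows. A match is a string of letters in this window and says nothing of binding in KMS11 cells.

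Among the nuclear CREB proteins, CREB1 was close to shLuc with both hairpins. CREB1 encodes the prototype cAMP-responsive activator. Its brightest probe set had signals of 1553 with shMMSET#2 and 1513 with shMMSET#4, against 1422 with shLuc, which is 1.09-fold and 1.06-fold higher. The 3 signals are thus nearly equal. Of its 7 probe sets, all were higher than shLuc with shMMSET#4 and 6 were higher with shMMSET#2, with log2 ratios from -0.11 to 0.81 and from 0.09 to 0.99. The largest difference was on a dimmer probe set, 204312_x_at, whose signals were 372 with shMMSET#2 and 422 with shMMSET#4, against 213 with shLuc. That is 1.75-fold and 1.98-fold higher, inside the 2.39-fold that bounds the difference between hairpin arrays for 95% of probe sets of like signal. The other 6 were within 1.40-fold.

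CREM encodes both activators and, from an internal promoter, the short repressor ICER. Its probe sets fell into different patterns with shMMSET#4. The brightest, 207630_s_at, had signals of 769 with shMMSET#2 and 611 with shMMSET#4, against 941 with shLuc, so it was 1.22-fold and 1.54-fold lower. Another, 209967_s_at, ran alike, with 562 and 450 against 670. In contrast, 228092_at had 615 with shMMSET#2 and 854 with shMMSET#4, against 650 with shLuc, which is 1.06-fold lower and 1.31-fold higher. The hairpins thus lay on opposite sides of shLuc there, and on 214508_x_at and 230511_at the differences were under 1.2-fold. The sixth, 210171_s_at, was near or under the floor on all arrays and did not pass. The files do not say which CREM transcripts each probe set detects, so the ICER form was not told apart from the others. The call with shMMSET#4 on the brightest probe set, a log2 ratio of -0.62, was lost when arrays were scaled to the same median (-0.24) and with the mean over probe sets (-0.14). With shMMSET#2 the ratio of -0.29 became 0.03 under that scaling.

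Of the factors made at the endoplasmic reticulum membrane, CREB3 was higher and CREB3L2 lower with both hairpins. CREB3 (Luman) is released from the membrane by regulated proteolysis and was measured by 1 probe set, 209432_s_at. Its signals were 575 with shMMSET#2 and 678 with shMMSET#4, against 243 with shLuc. Both hairpin signals lie far above the shLuc signal, 2.37-fold and 2.79-fold, and both are past the 2.25-fold that bounds the hairpin arrays' difference for 95% of probe sets of like signal. The shMMSET#4 signal was 1.18-fold above that of shMMSET#2. No other CREB3 probe set was there to compare, and the suffix _s_at marks probes that can match more than 1 transcript.

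CREB3L2 (BBF2H7) is best known from mouse cartilage, where it raises the coat protein gene Sec23a and with it secretion. Its brightest probe set, 212345_s_at, had signals of 1909 with shMMSET#2 and 2046 with shMMSET#4, against 5748 with shLuc. The hairpin arrays were within 1.07-fold of each other, and both were past the bound of 2.01-fold for probe sets of like signal. The other probe sets did not share this size. On 228759_at the signals were 130 with shMMSET#2 and 153 with shMMSET#4, against 151 with shLuc, a 1.16-fold lower and a 1.02-fold higher value. On 237819_at, which did not pass the filter, they were 51.0 and 50.1 against 68.3, 1.34-fold and 1.36-fold lower. The CREB3L2 difference therefore rests on 212345_s_at, and without probe sets of the types _x_at and _s_at the gene had log2 ratios of -0.21 and 0.025. SEC23A itself had signals of 3276 with shMMSET#2 and 3140 with shMMSET#4, against 3154 with shLuc, within 1.04-fold.

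ATF6 encodes the sensor of misfolded protein that moves to the Golgi for cleavage under stress. All 4 of its probe sets were higher with both hairpins. The brightest, 226941_at, had signals of 4576 with shMMSET#2 and 4094 with shMMSET#4, against 2481 with shLuc, 1.84-fold and 1.65-fold higher. On 231927_at they were 2493 and 2067 against 1539, and on 217550_at 1881 and 1759 against 1330, or 1.32-fold to 1.62-fold higher. On 203952_at they were 1358 with shMMSET#2 and 1849 with shMMSET#4, against 1236 with shLuc, so this probe set was 1.10-fold higher with shMMSET#2 and just under the threshold with shMMSET#4. Each of these differences is smaller than the 1.87-fold to 2.10-fold that bounds the hairpin arrays' difference for 95% of probe sets of like signal. With the mean over its probe sets the log2 ratios were 0.55 and 0.53, just short of 1.5-fold.

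ATF6B encodes a paralog that is cleaved in the same way. Its probe sets disagreed. On 203168_at the signals were 370 with shMMSET#2 and 596 with shMMSET#4, against 359 with shLuc. Only shMMSET#4 stood apart there, 1.66-fold higher, with shMMSET#2 within 1.03-fold of shLuc. On 1554487_a_at they were 305 and 196 against 382, 1.25-fold and 1.95-fold lower, and on 216208_s_at 91.0 and 147 against 157, 1.72-fold and 1.07-fold lower. The order of the arrays differs on each of the 3, and the mean over them gave a log2 ratio of -0.11 with shMMSET#4, where the brightest gave 0.73. Another probe set is assigned to both TNXB and ATF6B and was not counted, with signals of 94.5 and 128 against 149.

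In the branch of ATF2, ATF7 and CREB5, ATF2 was called lower and ATF7 higher with shMMSET#2 alone, and CREB5 was called lower with both hairpins. ATF2 binds the CRE alone or with JUN after phosphorylation by stress kinases. Its brightest probe set, 212984_at, had signals of 2574 with shMMSET#2 and 4115 with shMMSET#4, against 5722 with shLuc, which is 2.22-fold and 1.39-fold lower. A dimmer one, 205446_s_at, gave the same order, with 196 and 311 against 410, or 2.10-fold and 1.32-fold lower. On both, shMMSET#2 was lowest and shMMSET#4 lay between it and shLuc. With shMMSET#4 the difference shrank to a log2 ratio of -0.10 when arrays were scaled to the same median. The third probe set, 1555146_at, was under the floor on all arrays.

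ATF7, the closest paralog of ATF2, was higher with shMMSET#2 on its brighter probe sets. On 228829_at the signals were 1135 with shMMSET#2 and 813 with shMMSET#4, against 745 with shLuc, and on 228830_s_at they were 696 and 507 against 440. These are 1.52-fold and 1.58-fold higher with shMMSET#2, and 1.09-fold and 1.15-fold higher with shMMSET#4. A dimmer probe set, 244587_at, went the other way, with 121 and 45.0 against 137, that is 1.13-fold and 3.05-fold lower. The other 2 had at least 1 array at or under the floor and did not pass. With the mean over probe sets the log2 ratio with shMMSET#2 was 0.34, under 1.5-fold, and that with shMMSET#4 was -0.25.

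CREB5 encodes a CRE-binding relative of ATF2 that can pair with JUN. Its brightest probe set, 229228_at, had signals of 35.4 with shMMSET#2 and 40.3 with shMMSET#4, against 351 with shLuc. Both hairpin signals are under the floor, so the gene was at least 8.52-fold lower with each, and the hairpins could not be ordered. On 205931_s_at the signals were 36.2 and 21.5 against 175, at least 4.25-fold lower with each. The bounds for probe sets of like signal are 2.62-fold and 2.60-fold. Both probe sets passed the filter through the shLuc array alone and were at the floor with both hairpins. Their place past these bounds therefore lends no support. On 242329_at they were 56.7 and 48.9 against 82.7, 1.46-fold and 1.69-fold lower, and 232555_at, which did not pass, had 51.1 and 5.43 against 63.1. All 4 probe sets were thus lowest with the MMSET hairpins. CREB5 passed the filter through the shLuc array, so some difference was built into its inclusion, and a filter at the 75th percentile left it out.

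**Figure D3:**
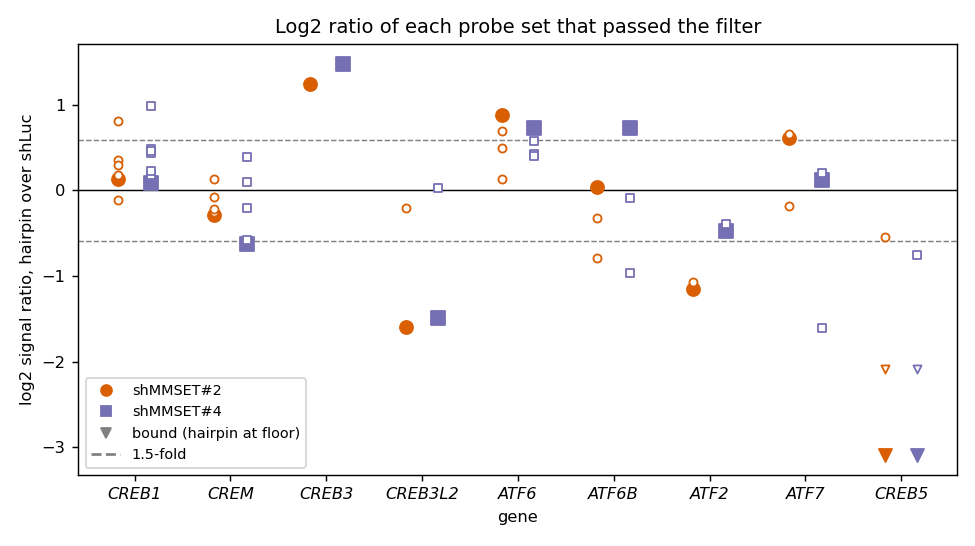
Log2 signal ratio of each hairpin over shLuc (y axis) for the 30 probe sets that passed the filter, by gene (x axis), with shMMSET#2 left of shMMSET#4. Large filled marks are the brightest probe set of a gene, small open marks the others, triangles are bounds where the hairpin array was at the floor, and dashed lines are 1.5-fold. Probe sets of ATF6 and CREB5 keep to their own side of 0, whereas those of ATF6B and ATF7 spread to both sides.

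The comparison of shMMSET#4 with shMMSET#2 does not use the shLuc array. Here 2 of the 9 genes were at least 1.5-fold higher with shMMSET#4, beside 16.9% of tested genes, and 0 of 9 were lower, beside 13.6%. They were ATF2 (1.60-fold higher) and ATF6B (1.61-fold higher), and both ATF2 probe sets that passed showed it, 1.60-fold and 1.59-fold. For ATF6B the brightest and the dimmest probe set were 1.61-fold higher and the other was 1.56-fold lower. The 7 other genes lay within 1.40-fold between hairpins. Over the 30 probe sets, 4 were higher with shMMSET#4 (15.6% of all tested probe sets) and 2 were lower (15.8%). For the 4 genes that differed from shLuc with both hairpins, the log2 ratio of shMMSET#4 to shMMSET#2 was 0.24 for CREB3, 0.10 for CREB3L2 and -0.16 for ATF6, while CREB5 was at the floor on both arrays.

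The genes whose pattern over the 3 arrays lay nearest to each of these 4 were found by Euclidean distance between log2 signals centred on the gene's mean. With only 3 arrays many genes share a pattern: 142 of 13295 other tested genes lay within a distance of 0.25 of CREB3, 163 of CREB3L2, 707 of ATF6 and 1 of CREB5. The nearest to CREB3 were SELENOK (9464 with shMMSET#2 and 11105 with shMMSET#4, against 3996 with shLuc), TSC2 and PGAP6. The nearest to CREB3L2 were LPCAT4 (561 and 566 against 1685), and C7orf57 and CXCR1, both at the floor with both hairpins. Nearest to ATF6 were EPS8L1, PDHX (2241 and 2007 against 1223) and SHF. SHF was under the floor with shLuc (13.1), so its nearness rests on the floor, and EPS8L1 passed the filter through the hairpin arrays alone. CREB5 had SLC15A2 (45.3 and 19.2 against 383) as its nearest, then ITGA8 and SEMA3C at distances of 0.26 and 0.32.

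Around these factors, 8 lists of 151 genes were examined, of which 126 were tested and 6 stood in more than 1 list. Over all of them with both hairpins 7 genes were called lower and 11 higher, beside 11.9% and 8.6% of all tested genes. With the arrays scaled to the same median the split became 4 lower and 24 higher, beside 5.28% and 19.7% of all tested genes, so the shift ran through the whole array. On their brightest probe sets, none of 11 tested coactivators and brakes of CREB was lower or higher with either hairpin. A dimmer CRTC3 probe set was lower with both (log2 ratios -0.63 and -1.25). A dimmer SIK1 probe set was higher with both (1.10 and 0.75). With shMMSET#2, dimmer probe sets of SIK3 and PPP1CB were also higher (0.72 and 0.70). CREBBP and EP300, which encode the acetyltransferases CBP and p300, had log2 ratios of -0.29 and -0.37 with shMMSET#2, and of -0.30 and -0.07 with shMMSET#4. The medians of this list were -0.18 and -0.13. They turned to 0.14 and 0.25 with the arrays scaled to the same median, and a dimmer CREBBP probe set was higher with shMMSET#2 (log2 ratio 1.09).

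In the cAMP and protein kinase A list, 4 of 28 tested genes were higher and 2 lower with both hairpins, beside 8.6% and 11.9% of all tested genes. PRKAR2B, which encodes a regulatory subunit of the kinase, had signals of 350 with shMMSET#2 and 566 with shMMSET#4, against 58.7 with shLuc. PKIA, an inhibitor of the kinase, had 1401 and 1588 against 2979, or 2.13-fold and 1.88-fold lower. PDE7B, a phosphodiesterase that degrades cAMP, was at least 2.10-fold lower with each. PDE7B passed the filter through the shLuc array alone, and PRKAR2B through the hairpin arrays alone. Some difference was therefore built into the inclusion of both genes. AKAP12, an anchor of the kinase, was higher by 1.90-fold and 1.99-fold on the probe set used and lower on a dimmer one. The list's medians were -0.32 and -0.01, or -0.0034 and 0.38 with the median scaling, where 1 gene was lower and 6 were higher, beside 5.28% and 19.7% of all tested genes. The catalytic subunit genes PRKACA and PRKACB had log2 ratios of -0.70 and -0.55 with shMMSET#2 and of 0.11 and -0.08 with shMMSET#4.

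Of 18 tested cAMP-responsive target genes, 4 were lower with both hairpins and 1 was higher, beside 11.9% and 8.6% of all tested genes. PPARGC1A, a metabolic coactivator, had signals of 129 with shMMSET#2 and 172 with shMMSET#4, against 542 with shLuc. FOS, an immediate early gene, had 393 and 371 against 969, and NR4A2, an orphan nuclear receptor, had 124 and 57.1 against 239. On a dimmer NR4A2 probe set the log2 ratio with shMMSET#2 was only -0.09. IRS2, an insulin signalling adaptor, was 1.75-fold and 1.98-fold higher. The other IRS2 probe set fell short of 1.5-fold with each hairpin (log2 ratios 0.54 and 0.45). The fourth lower gene was BDNF, with probe sets that disagreed in sign. BDNF passed the filter through the shLuc array alone, so some difference was built into its inclusion. The list's medians were -0.55 with each hairpin, beside -0.04 and -0.02 over all tested genes, and remained negative, at -0.23 and -0.16, with the arrays scaled to the same median. The list also shares PDE4D and SIK1 with other lists.

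Of 21 tested kinases that act on CREB, ATF1, ATF2 or ATF7, 3 were higher with both hairpins and 0 were lower, beside 8.6% and 11.9% of all tested genes. MAP2K4, which activates JNK, had signals of 697 with shMMSET#2 and 718 with shMMSET#4, against 255 with shLuc. MAPK9, which encodes JNK2, had 830 and 1123 against 425, although a dimmer probe set was lower. RPS6KA4, a CREB kinase downstream of p38 and ERK, had 120 and 170 against 64.2. It passed the filter through the hairpin arrays alone, so some difference was built into its inclusion. Counted by hairpin, 10 of the 21 were higher with shMMSET#4, beside 17.3% of all tested genes, and 2 were lower, beside 20.6%. With shMMSET#2, 3 were higher (16.2%) and 1 was lower (22.5%). The 3 called higher with both hairpins are within the higher counts of each. The list's medians were 0.38 and 0.53, and became 0.70 and 0.91 with the median scaling, where 9 genes were higher with both hairpins, as were 19.7% of all tested genes.

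Of 9 tested genes that handle the membrane-bound factors, ERP44, an oxidoreductase of the secretory pathway, was 1.56-fold and 1.80-fold higher with both hairpins. The other 8 were neither lower nor higher with both, beside 11.9% lower and 8.6% higher of all tested genes. A dimmer ERP44 probe set was not higher with shMMSET#4 (log2 ratio -0.11). Without _x_at and _s_at probe sets, and with the mean over probe sets, 0 genes of this list were higher with both hairpins. MBTPS1 and MBTPS2, which encode the Golgi proteases that cut ATF6 and CREB3 proteins, had log2 ratios between -0.24 and 0.28 on their brightest probe sets. The list's medians were -0.19 and 0.11, or 0.13 and 0.49 with the median scaling. Of 18 tested ATF6 target genes, CRELD2 alone was higher with both hairpins (8.6% of all tested genes) and 0 were lower with both (11.9%). The CRELD2 signals were 2626 with shMMSET#2 and 4154 with shMMSET#4, against 1289 with shLuc. With shMMSET#2, 1 of the 18 was higher and 4 were lower, beside 16.2% and 22.5% of all tested genes. With shMMSET#4, 7 were higher and 1 was lower, beside 17.3% and 20.6%. HSPA5, the chaperone BiP, had 11922 with shMMSET#2 and 22398 with shMMSET#4, against 24800 with shLuc, 2.08-fold and 1.11-fold lower. Between hairpins 6 of the 18 were at least 1.5-fold higher with shMMSET#4 and 1 was lower, beside 16.9% and 13.6%. The medians were -0.07 and 0.20, and became 0.25 and 0.58 with the median scaling, where 4 targets were higher with both hairpins (19.7% of all tested genes).

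In the list of COPII coat and Golgi genes, SAR1B, a coat GTPase, was 1.94-fold and 2.04-fold higher with both hairpins. The other 16 of 17 were neither lower nor higher with both, beside 11.9% lower and 8.6% higher of all tested genes. With shMMSET#2, 5 of the 17 were lower and 2 higher (22.5% and 16.2% of all tested genes). With shMMSET#4, 2 were lower and 1 higher (20.6% and 17.3%). This list's medians were -0.14 and -0.20, and turned to 0.18 and 0.18 with the median scaling. Among 9 tested relatives outside the 10 genes, 1 was lower with both hairpins (11.9% of all tested genes) and 0 were higher (8.6%). This was ATF3, a stress-induced repressor, with signals of 1169 with shMMSET#2 and 867 with shMMSET#4, against 2141 with shLuc. With shMMSET#2, 5 of the 9 were lower and 1 higher (22.5% and 16.2%). With shMMSET#4, 2 were lower and 0 higher (20.6% and 17.3%). The medians of these relatives were -0.80 with shMMSET#2 and -0.28 with shMMSET#4, and the value with shMMSET#4 became 0.05 with the median scaling. ATF3 was no longer called with both hairpins under that scaling, without _x_at and _s_at probe sets, or with the mean over probe sets. Among its 3 probe sets that passed, log2 ratios reached 0.34 with shMMSET#2 and -0.007 with shMMSET#4. ATF4, the main factor of the integrated stress response, had signals of 13943 with shMMSET#2 and 22448 with shMMSET#4, against 28464 with shLuc.

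**Figure D4:**
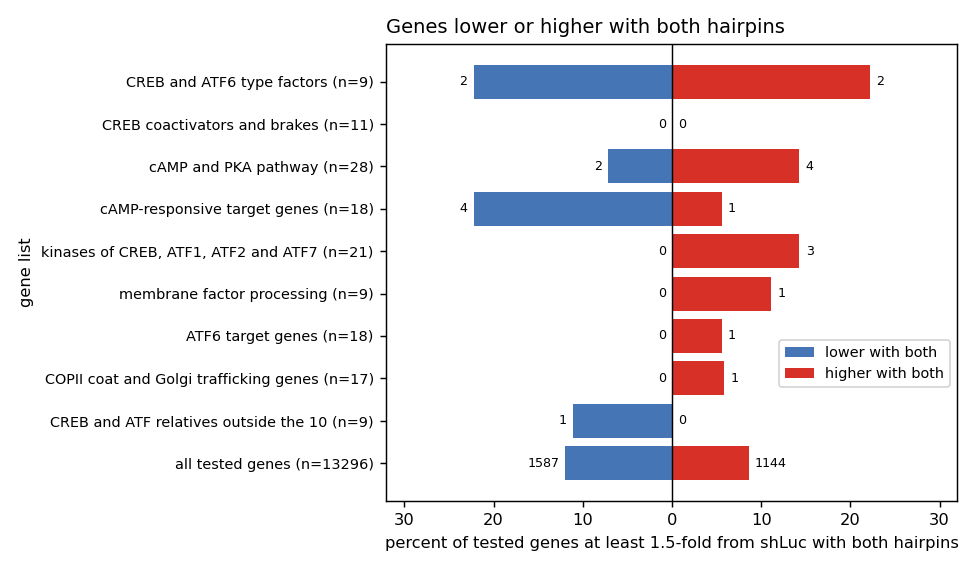
Share of tested genes (x axis, percent) at least 1.5-fold lower (blue, left) or higher (red, right) than shLuc with both hairpins, for the CREB and ATF6 type factors, 8 lists around them and all tested genes (y axis), with the number of genes printed at each bar. The 9 factors have 2 genes on each side, and the coactivator list has 0 on both.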

How the data were processed

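Labelled RNA from KMS11 cells was hybridised to 3 Affymetrix arrays, 1 for each of shMMSET#2, shMMSET#4 and shLuc. The deposited intensities are MAS5 signals on a linear scale, per the submitters' processing notes. GeneSpring is named in the series' text, with no version or setting given for either. That text names a smaller array of the U133 family, but the 54675 identifiers are those of HG-U133 Plus 2.0. The 2% trimmed mean was 500.1 on every array, so the authors' values were already scaled, and no further scaling was done.

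Of the probe sets, 41091 had 1 gene symbol, 1801 had several, 11721 were unnamed here and 62 were controls. Symbols were updated by Entrez identifier for 41037. Signals were floored at the 40th percentile (41.2) and log2-transformed. Genes took their probe set of highest mean signal, and 13296 of 19775 were tested. All members and marker genes are named; of each list up to 4 genes called with both hairpins were named, largest smaller ratio first, and others named in the text (BDNF, CREBBP, EP300, PRKACA, PRKACB, MBTPS1, MBTPS2, HSPA5, SEC23A, ATF4) were chosen after their values were seen. The members and lists were chosen with earlier results of these data known. Having 3 arrays limits the precision. Alternatives were quantile normalization, scaling each array to 1 median, other floors and filters, leaving out probe sets of the types _x_at and _s_at, the mean over probe sets, 2-fold and 3-fold thresholds, and limma. The calling steps were tested on simulated data. Python 3.11.15, numpy 2.4.6, pandas 2.3.3, matplotlib 3.10.9, R 4.3.3 and limma 3.58.1 were used.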

Additional observations from a re-analysis of the deposited data

How the results depend on the processing

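No paired analysis was possible because each group has 1 array and the groups share only 1 replicate number. Of the 9 measured genes, the directions of CREB5, CREB3, ATF6, ATF2 and CREB1 held under every alternative that could be computed for them. CREB3L2 reversed with shMMSET#4 (log2 ratio 0.025) without probe sets of the types _x_at and _s_at, as did CREM (0.39), and ATF6B reversed with shMMSET#4 (-0.11) with the mean over probe sets. These follow from which probe set stands for the gene. CREB3 could not be computed without such probe sets, nor CREB5 with a filter at the 75th percentile.

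Genes lower with both hairpins numbered 1 instead of 2 with a filter at the 75th percentile (7.31% of all tested genes), without _x_at and _s_at probe sets (13.7%) and at 3-fold (0.782%). Genes higher with both numbered 1 without those probe sets (8.1% of all tested genes), at 2-fold (2.83%) and with the mean over probe sets (5.84%). At 3-fold 0 were higher (0.662%). With limma, taking the hairpin arrays as 2 samples against shLuc and the lone shLuc array as equally variable, 0 of 9 genes were lower and 0 higher at an adjusted p of 0.05 (smallest adjusted p 0.52), as for all tested genes, and at an unadjusted p under 0.05 there were 2 lower and 1 higher. Between hairpins, no gene was higher with shMMSET#4 at 2-fold, 3-fold (0 at each) or with the mean over probe sets (0), which gave 1 lower.

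Probe sets lower with shMMSET#2 numbered 3 with a filter at the 75th percentile, 2 without _x_at and _s_at probe sets and 3 at 3-fold, against 6; those higher numbered 3 without such probe sets, 1 at 2-fold and 0 at 3-fold, against 6. With shMMSET#4, lower ones numbered 4 with the arrays scaled to the same median, with a floor at the 60th percentile, without those probe sets and at 2-fold. They numbered 2 with the filter at the 75th percentile and 3 at 3-fold, against 7. Higher ones numbered 13 with the median scaling, 2 without those probe sets, 1 at 2-fold and 0 at 3-fold, against 4. The shares of all tested probe sets under these settings are not given here, so these counts describe the members alone. Of the list genes, those lower with both numbered 4 with the median scaling and with the filter at the 75th percentile, 3 at 2-fold and 1 at 3-fold, against 7; those higher numbered 24 with the median scaling, 3 at 2-fold, 1 at 3-fold and 6 with the mean over probe sets, against 11. In all, 71 of 108 such counts stayed within 1.5 times, and 46 of 352 values of single lists moved. Among the latter, counts were held to the same limit. Median log2 ratios were held to 0.44, the standard deviation per array between hairpins. Signals near the floor limit CREB5, ATF7 and the dimmer probe sets most.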
